A study of Mus musculus with 48 samples.

Results

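Intermediate progenitors are the dividing daughters of neural stem cells in the embryonic cortex, and most of the neurons of the cortex pass through them. Deep-layer neurons are born first and upper-layer neurons later, so an early and a late intermediate progenitor supply different layers. An enhancer is a stretch of DNA that raises transcription of a gene when the right transcription factors are present, and its activity can therefore differ between ages of the same cell type. The comparison described here set reporter activity in late intermediate progenitors against that in early intermediate progenitors, element by element.

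The measure was a massively parallel reporter assay, in which a large library of designed DNA stretches, each in its own reporter plasmid, are tested together by the ratio of reporter RNA to plasmid DNA. C57BL/6JRj mouse embryos received the library by in utero electroporation of the somatosensory cortex, and cells were collected 24 h later, fixed, permeabilised, stained for Pax6, Eomes (Tbr2) and Tubb3, and sorted. Tbr2-positive cells were taken as intermediate progenitors and Pax6-positive cells as neural stem cells. No genetic modification beyond the plasmids is given, and because a reporter plasmid is read outside its own chromosome, the assay shows what an element can do in these cells and not what it does at its place in the genome. No gene expression was measured in it, so the sorted cells could not be checked against markers.

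The early group was intermediate progenitors collected on embryonic day (E) 13 and E14, with 2 and 3 biological samples, after electroporation on E12 and E13. The late group was intermediate progenitors collected at E16 and E17, with 2 biological samples each, after electroporation on E15 and E16. Those at E15, with 3 biological samples, are given only beside the comparison. The deposited table gave a single value per element for each cell type and age, so no spread between biological samples is known, and the read depth behind a value is unknown. Activity below is the log2 of the authors' activity score relative to the scrambled control sequences of the same column. The late minus early difference is the mean of the E16 and E17 activities minus the mean of the E13 and E14 activities.

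Of the 11709 elements in the table, 11085 had a value in all 4 columns: 968 scrambled controls and 10117 others. The others belonged to classes that the table names NSC (2957 elements), IPC (2842), Mature (2554), E14 (901) and Shadow (863). In the first 3 of these classes the element names also carry the labels asc, desc or unc. The labels of the series do not say what the class names or the asc, desc and unc labels mean. To keep a class apart from an age or a cell type of the same name, classes are written as E14-class or IPC-class. The 624 elements left out lacked a value in at least 1 of the 4 columns.

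The scrambled controls showed how far an element without a designed function can move between these columns. Their late minus early difference averaged 0.01 with a standard deviation (SD) of 1.03 over controls, and 2.5% of them lay beyond -2.02 and 2.5% beyond 2.11, which serve as the limits below. The spread of the controls differed between columns, with SDs of 1.13 at E13, 0.77 at E14, 1.27 at E16 and 0.99 at E17. E16 was also the column with the most missing elements, 454. Standard errors (SE) are over elements and say nothing about animals. The only test over ages is an exact permutation of the 4 columns into 2 and 2, whose smallest possible two-sided p is 0.333. None of the 35 such tests made, over classes, labels and both cell types, could therefore pass a threshold, and the smallest Benjamini-Hochberg adjusted p was 0.686. No value below is called a rise or a fall for that reason.

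The sequences of 19 E14-class elements could be read in part from the RefSeq promoter windows of GRCm38.p6. These windows run from 250 bases before a gene's start to 50 after it, and only bases before the start were read. Among these 19 were 2 whose late and early values were fully separated and beyond the limits, 1 in each direction, and their sequences are shown for that reason. The Slc39a11 element, with the largest late minus early difference in either direction among E14-class elements, lies at chr11:113308592-113308857, within the span of Slc39a11, a zinc transporter gene. The stretch read is chr11:113308715-113308857, 143 bases on the + strand, in the promoter window of the long noncoding RNA gene Gm51927. The second, named for Prelp, a gene of an extracellular matrix proteoglycan, lies at chr1:133921451-133921716, before the start that the Prelp promoter window uses. Its stretch, chr1:133921452-133921651, is 200 bases on the - strand in the promoter window of Prelp. Capitals mark matches to the motifs searched.
Slc39a11 element, higher early: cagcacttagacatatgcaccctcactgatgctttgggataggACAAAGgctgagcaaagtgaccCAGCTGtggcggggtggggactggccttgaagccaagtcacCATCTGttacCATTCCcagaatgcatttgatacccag
Prelp element, higher late: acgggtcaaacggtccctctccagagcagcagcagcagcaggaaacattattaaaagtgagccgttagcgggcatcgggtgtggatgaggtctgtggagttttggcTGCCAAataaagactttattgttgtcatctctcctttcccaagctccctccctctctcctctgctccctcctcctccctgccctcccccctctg

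On both strands 10 motifs were searched: CAGATG and CAGCTG (E-boxes, bound by bHLH factors), ATGCAAAT (POU octamer), TTGGCA (the NFI half-site), ACAAAG (SOX), AGGTGTGA (T-box), TAATTA (homeodomain), TGANTCA (AP-1), GGAATG (TEAD) and TGGCGC (E2F). The Slc39a11 stretch held CAGCTG at base 66, CAGATG as its reverse complement at base 107, ACAAAG at base 44 and GGAATG as its reverse complement at base 117. Of 32851 promoter windows trimmed to the same length and position, 7.18% held CAGCTG, 8.52% CAGATG, 9.92% ACAAAG and 7.77% GGAATG. The Prelp stretch held TTGGCA as its reverse complement at base 107, as did 10.2% of windows of its length. No match overlapped another in either stretch. A match of 6 letters is a description of the sequence and not evidence that a factor binds there, and the rest of both elements was not read.

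In intermediate progenitors the Slc39a11 element had activities of 6.83 at E13 and 5.37 at E14, against 0.39 at E16 and 0.22 at E17. At E15 it was at 0.12, near the late values. Its late minus early difference was -5.79, beyond every scrambled control, whose lowest was -4.74. The authors' adjusted p was under 0.05 in both early columns and in neither late column. In neural stem cells the same element ran the other way, with a late minus early difference of 1.98, inside the limits of -2.52 and 2.16 that the controls set there. The Prelp element had activities of 0.11 at E13 and -0.71 at E14, 0.15 at E15, then 3.39 at E16 and 1.92 at E17. Its difference was 2.96, above the upper limit and below the highest scrambled control, at 3.58. It falls outside the rule by which elements are named below and is given because a sequence was at hand.

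By class, the IPC-class elements averaged higher in late than in early intermediate progenitors. Their mean activity was 0.19 at E13 and 0.20 at E14, 0.21 at E15, then 0.26 at E16 and 0.38 at E17. Both late means thus lay above both early means. The same order held in the NSC-class, Mature-class and Shadow-class and in the scrambled controls (0.005 and 0.007 early, 0.011 and 0.020 late). Centred on all elements, where the scrambled mean is -0.07, the IPC-class difference was 0.0377. Centred on the controls, its late minus early difference was 0.12 ± 0.02 (SE over 2842 elements) against 0.01 ± 0.03 in the scrambled controls. Most of it came from E17: the difference was 0.06 without the E17 column and 0.20 without the E16 column. The exact permutation p was 0.333.

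The labels within the IPC-class differed in how much they moved. Elements labelled asc stood at 0.00 at E13 and 0.15 at E14, 0.14 at E15, then 0.27 at E16 and 0.41 at E17, a difference of 0.26 ± 0.05 (SE over 696 elements). Elements labelled desc stood at 0.21, 0.16, 0.20, 0.22 and 0.38 at the same ages, a difference of 0.11 ± 0.04 (SE over 1071 elements) that was 0.0236 without the E17 column and 0.21 without E16. Those labelled unc stood at 0.30, 0.28, 0.26, 0.28 and 0.37, a difference of 0.04 ± 0.04 (SE over 1075 elements). The 3 labels thus lay apart at E13 and close together at E17. The difference was larger for asc than for desc by 0.15 ± 0.06. At single ages asc minus desc was -0.21 at E13 and -0.01 at E14, -0.06 at E15, then 0.06 at E16 and 0.02 at E17. The gap rested largely on E13, since without that column asc minus desc was 0.04. The exact permutation p was 0.333.

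The NSC-class showed a smaller difference that lay at E17. Its mean was 0.04 at E13 and 0.04 at E14, 0.03 at E15, then 0.05 at E16 and 0.18 at E17, with a late minus early difference of 0.08 ± 0.02 (SE over 2957 elements), and 0.0212 without the E17 column. Its labels did not separate: asc differed by 0.08, desc by 0.05 and unc by 0.10, and asc minus desc was 0.03 ± 0.05. Mature-class elements were near the controls at every age, from 0.01 at E13 to 0.07 at E17, with a difference of 0.03 ± 0.02 (SE over 2554 elements). Those labelled asc in that class had a difference of -0.08 ± 0.08 and those labelled desc 0.05 ± 0.04, so neither could be told from 0. Against a scale centred on all elements rather than on the controls, the NSC-class difference was -0.01 and the Mature-class difference -0.05. The scrambled controls were at -0.07 there and at 0.01 on the main scale. The sign of both classes thus turns with the reference, as does that of the controls.

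The E14-class was the most active class at every age and its mean did not move. It averaged 0.41 at E13 and 0.43 at E14, 0.35 at E15, then 0.42 at E16 and 0.44 at E17, with a late minus early difference of 0.01 ± 0.05 (SE over 901 elements) and a median of 0.01. On the linear scale of the authors' MAD score, where strong elements weigh more, the late minus early difference of the E14-class was -1.50. In the scrambled controls that difference was -0.62 ± 0.43 (SE). Shadow-class elements, most of which share their coordinates with an E14-class element, averaged 0.05 at E13 and 0.05 at E14, 0.02 at E15, then 0.13 at E16 and 0.21 at E17. Their difference was 0.12 ± 0.04 (SE over 863 elements). In the 781 pairs at the same coordinates the E14-class member moved by -0.02 and the Shadow member by 0.11. The paired gap was -0.13 ± 0.06 (SE over pairs), with a median of -0.03. Across these pairs the members' differences had a Spearman rho of -0.00, and the values share columns and controls.

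A flat mean did not mean that single E14-class elements stayed where they were. Their late minus early differences had an SD of 1.35 over elements, wider than the controls'. Of all 10117 elements that were not scrambled, 4.39% lay above the upper limit and 4.12% below the lower limit. In the E14-class 53 elements lay above, which is 5.88% (95% Wilson interval 4.53 to 7.61), and 57 below, which is 6.33% (4.92 to 8.11). These intervals cover the sampling of elements only and leave out the uncertainty of the limits. In the IPC-class 4.57% lay above and 4.82% below, in the NSC-class 3.96% and 3.08%, in the Mature-class 4.27% and 3.99%, and in the Shadow-class 4.06% and 3.48%. The IPC-class labels were close to each other, at 4.45%, 4.67% and 4.56% above the upper limit for asc, desc and unc. Below the lower limit they were at 3.45%, 5.23% and 5.30%, with overlapping Wilson intervals. The shares in the controls were 2.58% on either side by construction.

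A stricter count asked that both late columns also lie on the same side of both early columns. By that rule 3.71% of all elements were higher late and 3.32% lower late, against 2.38% and 2.07% of the scrambled controls. The E14-class gave 44 elements higher late (4.88%, Wilson interval 3.66 to 6.49) and 51 lower late (5.66%, 4.33 to 7.37). The IPC-class gave 113 in each direction (3.98%). The NSC-class gave 97 higher late (3.28%) and 70 lower late (2.37%). Among the 5 classes, the lower-late E14-class share was the only one whose whole interval lay above the background share of the same direction. The lower-late IPC-class interval began at 3.318%, barely under that background of 3.321%. The background includes the class set against it.

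The same difference was also taken in disjoint column pairs, so that an element chosen in the first pair could be looked up in the second. This was added after the data had been seen. Of the 465 elements above the upper limit for E16 minus E13, 38 (8.17%) were also above it for E17 minus E14, where 3.68% of all elements were. Of the 404 below the lower limit, 32 (7.92%) were again below, against 3.41% of all. Most elements beyond a limit in the first pair were thus inside the limits in the second. Across elements, Spearman's rho between these pairs was 0.13 in the E14-class, 0.05 in the IPC-class, -0.01 in the NSC-class and 0.02 in the scrambled controls. With the pairs crossed (E16 minus E14 against E17 minus E13) it was 0.14, 0.07, 0.02 and 0.00. Values of single elements below are to be read with this in mind.

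How many elements were active at all differed by period and class. An element was counted active when its mean over the early, or late, columns exceeded the value that 2.5% of scrambled controls exceeded, 1.51 early and 1.61 late. In the E14-class 131 elements (14.5%, Wilson interval 12.39 to 16.99) were active early and 104 (11.5%, 9.62 to 13.8) late, with 29 in both. The IPC-class gave 223 (7.85%) early and 241 (8.48%) late. Within it, asc went from 36 active elements (5.17%) early to 64 (9.20%) late, while unc went from 114 (10.6%) to 97 (9.02%). Shadow-class elements went from 29 (3.36%) to 55 (6.37%), and NSC-class elements from 111 (3.75%) to 149 (5.04%). Over all elements that were not scrambled, 5.92% were active early and 6.57% late. The Wilson intervals of the periods were apart for the Shadow-class and for asc elements of the IPC-class, and overlapped for the E14-class, the IPC-class, its unc elements and the NSC-class. These intervals treat the periods as separate sets although the same elements were counted in both. They also leave out the uncertainty of the cut-offs and any spread between ages, so a change between periods was not tested.

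Activity repeated in both columns of a period was more frequent early in the E14-class. In that class 66 elements (7.33%) exceeded the upper limit of the controls at both E13 and E14, and 9 (0.999%) did so at both E16 and E17. Over all elements that were not scrambled the shares were 1.30% early and 0.534% late, also lower late. These shares include the E14-class, which gave 66 of the 132 early elements and 9 of the 54 late ones. The scrambled controls gave 3 elements early and 0 of 968 late, which allows a share of up to 0.310%, and no element of any class exceeded the limit in all 4 columns. By the authors' adjusted p under 0.05, 127 E14-class elements (14.1%) were called in both early columns and 56 (6.22%) in both late columns, against 3.85% and 3.60% of all elements and 12 (1.24%) and 17 (1.76%) of the scrambled controls. The IPC-class gave 54 (1.90%) early and 22 (0.774%) late by the limits, and 165 (5.81%) and 138 (4.86%) by the authors' p. The NSC-class ran the other way, with 6 (0.203%) early and 14 (0.473%) late by the limits and 47 (1.59%) and 86 (2.91%) by the authors' p. So did the Shadow-class, with 2 (0.232%) and 4 (0.463%) by the limits and 12 (1.39%) and 30 (3.48%) by the authors' p. The Mature-class also had more late, with 4 (0.157%) and 5 (0.196%) by the limits and 39 (1.53%) and 54 (2.11%) by the authors' p. The late columns also resembled each other less: Spearman's rho across E14-class elements was 0.32 between E13 and E14 and 0.14 between E16 and E17, and the upper limits were 2.65 and 1.54 early and 2.76 and 1.99 late. Their part in the drop was not tested.

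Few elements were called by the authors' p in all 4 columns, 0.405% of those that were not scrambled. There were 41: 20 in the E14-class (2.22% of it), 20 in the IPC-class (0.704%) and 1 in the NSC-class (0.0338%). None of the 968 scrambled controls, the Mature-class or the Shadow-class was among them.

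Activity at E15, which the comparison did not use, lay between the periods for the separated E14-class elements, as it did for scrambled controls chosen the same way. The 44 that were higher late had a median activity of -0.59 early, 0.31 at E15 and 2.24 late. The 51 that were lower late had a median of 2.87 early, 0.86 at E15 and -0.12 late. E15 was nearer to the late than to the early value in 15 of 44 and 31 of 51. Over the whole E14-class the E15 median was 0.30. The elements that were higher late were thus at the class median at E15. The controls higher late had medians of -0.94 early, -0.28 at E15 and 1.44 late, and those lower late 1.51, 0.04 and -1.07. In them E15 was nearer to the late value in 3 of 23 and 12 of 20.

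Neural stem cells of the same ages gave a separate set of columns for the same elements. Of the 44 E14-class elements higher late in intermediate progenitors, 41 had values in neural stem cells and 21 of these had the same sign there (51.2%, against 52.9% of the class). Of the 51 lower late, 50 had values and 28 had the same sign (56.0%, against 47.1% of the class). None of the first set and 2 of the second passed the limits in neural stem cells as well, where 3.11% of the E14-class lay above and 1.89% below, so these counts were near the share of the class. For the IPC-class the shares with the same sign were 58.0% of elements higher late, against 56.5% of the class, and 61.5% of elements lower late, against 43.5% of the class.

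By class, the late minus early difference in intermediate progenitors was set against that in neural stem cells over elements measured in both. The IPC-class differed by 0.13 in both cell types, a gap of 0.00 ± 0.03 (SE over 2810 elements). The NSC-class gap was -0.08 ± 0.03, with 0.07 in intermediate progenitors and 0.15 in neural stem cells. It lay in the asc elements of that class, which differed by 0.08 in intermediate progenitors and 0.28 in neural stem cells, a gap of -0.20 ± 0.05 (SE over 1081 elements; exact permutation p = 0.333). That gap was -0.10 without the E13 columns and -0.29 without the E14 columns. It was -0.07 with only elements whose mean activity exceeded the scrambled median. The gap was 0.02 ± 0.05 for desc and -0.04 ± 0.05 for unc elements of the NSC-class. The asc elements of the IPC-class differed by 0.28 in intermediate progenitors and 0.20 in neural stem cells, a gap of 0.08 ± 0.06. The E14-class gap was -0.06 ± 0.06 and the Shadow-class gap 0.02 ± 0.05. Without the E13 columns the NSC-class gap turned to 0.03, and without the E14 columns it was -0.18.

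The E14-class elements with the largest differences are named by the protein-coding gene whose span holds them or, outside genes, by the nearest span, with no claim that the element acts on that gene. Of the 10 largest in each direction among separated elements, 2 higher and 2 lower were larger in size than any scrambled control moved in either direction. These were the elements at Prdm16, Srrm4, Aff3 and Slc39a11. Counting elements by the authors' calls as well, 17 of the 44 higher late and 18 of the 51 lower late were called in both columns of the higher period and in neither of the lower. Without the selection, 2.33% of the E14-class were called late only in this way and 4.99% early only. These shares were 2.15% and 1.90% of all elements that were not scrambled, and 1.45% and 1.03% of the scrambled controls. The calls rest on the same columns as the selection and are no separate check of it.

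The highest late minus early difference, 4.90, was at chr4:154599996-154600261 within Prdm16, a transcription factor of neural stem cells. This element was at 0.28 at E13 and -1.64 at E14, -0.22 at E15, then 5.34 at E16 and 3.11 at E17. The early and E15 values were near or below the controls, and both late values were far above them. Its Shadow partner had a difference of 2.94 in the same direction, while in neural stem cells the Prdm16 element had a difference of -0.22, with activities of 3.85 and 0.49 early, -0.63 at E15, and 2.62 and 1.28 late. The Srrm4 element, 3.93 kb from this gene of a neural splicing regulator (chr5:116435075-116435340), was at -1.13, 0.27, -2.03, 4.84 and 3.88 from E13 to E17, a difference of 4.79. Its Shadow partner had a difference of -2.73, the opposite way.

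Elements at Pitrm1, Cxcl12 and Git2 were also called by the authors in both late columns and in neither early one. The Pitrm1 element, within the gene of a mitochondrial peptidase (chr13:6568865-6569130), was at -1.37 and -1.45 early, 0.70 at E15, and 3.62 and 1.45 late, a difference of 3.95. The Git2 element (chr5:114753372-114753637), within a gene for a regulator of ARF GTPases, was at -0.89 and -0.88 early, -1.62 at E15, and 3.33 and 1.89 late, a difference of 3.50. The Cxcl12 element (chr6:117405853-117406118), 224.5 kb from the chemokine gene, was at -3.62 and 0.30 early, 1.26 at E15, and 2.68 and 1.85 late. Its difference of 3.92 rested on the low E13 value and was 1.96 without that column, inside the limits of the controls.

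The Nos1ap element (chr1:170367231-170367496), within the gene of an adaptor of neuronal nitric oxide synthase, was at -0.46 and 0.52 early, 0.33 at E15, and 4.11 and 2.51 late, a difference of 3.28. In neural stem cells its difference was -3.59, and -1.80 without E13. The remaining 4 of the 10 rested on E16. These were the elements at Mrpl39 (3.94, and 1.02 without E16), Opcml (3.89 and 1.34), Tspan18 (3.56 and 1.46) and Bcl2l13 (3.36 and 1.04). At E17 their activities were -0.09, -0.33, 0.52 and 0.73, within the range of the controls.

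In the other direction, the Slc39a11 element was followed by the Aff3 element (chr1:38632803-38633068), 2.62 kb from the gene of a nuclear transcription regulator. It was at 6.73 at E13 and 0.25 at E14, 1.88 at E15, then -3.01 at E16 and -0.63 at E17. Its difference of -5.31 rested on E13 and was -2.07 without that column. The element at Gm7932 (chr6:48876602-48876867; 10.52 kb away) was at 3.73 and 2.51 early, 0.61 at E15, and -0.73 and -1.19 late, a difference of -4.08. The Ptpn20 element (chr14:33740242-33740507), 99.49 kb from a tyrosine phosphatase gene, was at 3.83 and 1.33 early, -0.43 at E15, and -0.46 and -1.70 late, a difference of -3.66. These last elements were called by the authors in both early columns and in neither late one.

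The Olig2 element (chr16:91192703-91192968) lies 32.58 kb from the gene of a factor of the oligodendrocyte lineage. It was at 1.67 at E13 and 1.12 at E14, -0.48 at E15, then -2.54 at E16 and -1.77 at E17, so that most of its difference of -3.55 came from late values below the controls. In neural stem cells its difference was 1.54. The Lamp5 element (chr2:136051124-136051389), 0.64 kb from a lysosomal membrane protein gene, was at 4.08 and 0.20 early, 4.35 at E15, and -1.88 and -1.16 late, a difference of -3.66. It was the only one of the 10 lower-late elements that also passed the lower limit in neural stem cells, at -4.88. Without the E13 column it was -1.73 in intermediate progenitors, inside the limits.

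Others of the 10 lower-late elements lay at Tmem178b (-3.59), Atp2b2 (-3.27) and Pou3f3 (-3.06). Tmem178b, at 5.64 at E13 and 1.31 at E14, came to -1.43 without E13. Atp2b2, a calcium pump gene, came to -2.10 without E13, and both of these values were inside the limits. With each column left out in turn and the limits drawn anew, 5 of the 10 higher-late and 5 of the 10 lower-late elements stayed beyond the limits every time. Of those with values, 3 of 9 higher-late and 7 of 9 lower-late elements had the same sign in neural stem cells, against 52.9% and 47.1% of the class. Their Shadow partners had the same sign in 5 of 8 and 6 of 9. The share over all pairs was not computed, and Spearman's rho over the 781 pairs was -0.00.

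Gene lists for the cortex were read against the whole E14-class, of which 53 elements lay above and 57 below the limits with a median of 0.01. At genes of neural stem cells and Notch signalling there were 18 elements at 11 genes, 2 above, 1 below and a median of -0.04. These 3 were the Prdm16 element and a pair at Pax6, the transcription factor gene of cortical neural stem cells. At Pax6 5 elements were measured, of which 4 had a positive difference. The Pax6 element at chr2:105690065-105690330 was at -1.88 at E13 and -0.19 at E14, -0.66 at E15, then 2.11 at E16 and 1.95 at E17, a difference of 3.07. That at chr2:105686827-105687092, 3.24 kb away, was at 4.73, 1.82, 2.45, 0.25 and 1.01, a difference of -2.64. Elements within the same gene thus lay beyond opposite limits, but neither did without the E13 column, where the differences were 2.23 and -1.19.

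At genes of intermediate progenitors and neurogenesis there were 5 elements at 4 genes, none above, 1 below, with a median of -0.62. The element 1.74 kb from Eomes, which encodes the Tbr2 protein used for sorting, had a difference of -1.33 and lay inside the limits. It was at 0.46 and 1.08 early, 0.84 at E15, and -0.58 and -0.54 late, with no overlap. Both Sox11 elements, 495.8 and 326.9 kb from this neuronal transcription factor gene, were active early. The first was at 3.55, 2.35, 3.66, -0.06 and 1.01 from E13 to E17, a difference of -2.48, and the second at 1.86, 1.75, 2.27, 4.03 and 2.20, a difference of 1.31 inside the limits. With the limits drawn anew, the first was inside them at -1.88 without E13 and -1.95 without E16, and just inside at -3.08 without E14. Mfng, a modifier of Notch, had -0.62 and Gadd45g, a stress and differentiation gene, 0.36.

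At late temporal and gliogenic genes there were 10 elements at 4 genes, none above, 2 below, with a median of -0.14. The 2 were the Olig2 element and an element within Nfia, a factor of the gliogenic switch (chr4:97585192-97585457). The Nfia element was at 1.07 and 0.50 early, -1.18 at E15, and -1.46 and -1.09 late, a difference of -2.06 that barely passed the limit and was inside it with any single column left out. The other 3 Nfia elements were between -1.58 and 1.41. At upper layer genes there were 5 elements, 4 of them near Pou3f3, none above and 1 below, with a median of 0.49. That 1, 441.6 kb from Pou3f3, was at 1.76 and 1.31 early and -2.23 and -0.81 late. At deep layer genes there were 3 elements, all inside the limits with a median of -0.48, and at early temporal genes only the Hmga2 element, at -0.47.

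At genes of neuronal differentiation there were 8 elements at 5 genes, none above, 2 below, with a median of 0.08. The Dpysl5 element (chr5:30738107-30738372), within the gene of a protein of the axonal cytoskeleton, was at 4.78 and 3.13 early, 2.70 at E15, and 1.20 and 1.64 late, a difference of -2.53, and -1.71 without E13, inside the limits. It was still above the control mean at every age. The Gap43 element at chr16:42294541-42294806, within a growth cone gene, was at 5.08 at E13, 0.23 at E14, 0.28 at E16 and -0.39 at E17, so its difference of -2.71 rested on E13 and was -0.28 without that column. No E14-class element lay at a gene of the interneuron list, chosen as another cell type. With 0 to 2 elements beyond either limit in each list, no list is described as particular.

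Over the E14-class, 512 of 901 elements (56.8%) lay within a protein-coding gene. The share was 30 of 44 (68.2%, Wilson interval 53.4 to 80.0) for separated elements higher late and 31 of 51 (60.8%, 47.1 to 73.0) for those lower late, so neither was told apart from the class.

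The IPC-class, NSC-class and Mature-class elements have names without coordinates. The largest separated differences in the IPC-class, picked after their values were seen, were 5.09 for the element numbered IPC_228 (unc) and -6.20 for IPC_933 (unc). IPC_228 was at -0.02, -1.42, 0.50, 6.45 and 2.29 from E13 to E17. IPC_933 was at 6.16, 0.96, -1.28, -2.04 and -3.24, so that its highest value by far was at E13. In the Mature-class, Mature_neurons_332 (unc) was at -3.64 and -1.34 early and 2.21 and 5.17 late, a difference of 6.17. These single values, like those above, rest on 1 pooled value per age.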

How the data were processed

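Reporter DNA and RNA were sequenced from Pax6-positive and Tbr2-positive cells of 5 ages, 48 libraries in all, of which 18 belong to the 4 intermediate progenitor groups compared here. Cutadapt and the mouse build mm10 are named in the submitters' processing notes, without a role. The authors' deposited table holds 30 columns, 3 for each cell type and age. The activity score named statistic is deposited by the authors as a linear score without a unit, pooled over the biological samples. Recomputation showed the authors' MAD score to be that score minus the scrambled median, over the scaled median absolute deviation of the scrambled controls (largest difference 4.66e-12). The deposited p-value was used as the authors' adjusted p, with a threshold of 0.05, and calls 6.66% to 15.7% of scrambled controls in the intermediate progenitor columns. The aligner, barcode counting and filters are not given in the sources used for this work.

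Activity was log2(score / scrambled median + 0.1) minus the scrambled mean, per column, so differences at low values are understated. Scrambled medians were 0.292 at E13, 1.59 at E14, 0.524 at E16 and 0.339 at E17. Because each value is pooled, the limma test planned for values per replicate was not run, and limits that leave 2.5% of scrambled controls on either side took its place. Shares have 95% Wilson intervals. The script was tested on simulated data. Named elements were the 10 largest differences in each direction among E14-class elements with separated columns beyond the limits, the 5 largest of those with the authors' calls in both columns of the higher period only, and those at listed genes. The members, rule and gene lists were chosen with earlier results of these data known. Gene spans are those of 21900 protein-coding genes of GRCm38.p6. Coordinates are as in the element names, whose end minus start is 265. Python 3.11.15 with pandas 2.3.3, scipy 1.17.1 and statsmodels 0.14.6 was used. Among the named elements 1 is not reported here.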

Additional observations from a re-analysis of the deposited data

Results flagged for a closer look

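Both of the following are E14-class elements whose late and early values were separated in intermediate progenitors and, in the opposite direction, in neural stem cells. Whether the cell types differ was not tested. The Nos1ap element had a late minus early difference of 3.28 in intermediate progenitors and -3.59 in neural stem cells, where its activities were 6.18 and 2.60 early and 0.51 and 1.09 late. Without the E13 columns the neural stem cell value was -1.80, inside the limits drawn there. The Slc39a11 element had -5.79 in intermediate progenitors and 1.98 in neural stem cells, inside the limits there. With 1 age left out the neural stem cell value of the Slc39a11 element ranged from 0.875 to 3.09. The value of 3.09, without the E13 columns, lay above the upper limit of 2.18 drawn there. Without the E16 columns it was 2.71, also above the upper limit of 2.16 drawn there.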

How the results depend on the processing

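Late minus early means of classes and labels, counts beyond the limits and named elements were recomputed with other pseudocounts (0.5 and 0.02), another centring, the authors' MAD score, class medians, limits, filters, a slope over all 5 ages and each column left out, as far as each applies. The gaps between cell types had no MAD score or slope, and the listed genes only another distance. Shares of active elements, column pairs, E15, same signs, Shadow pairs and gene spans were not recomputed. Of the class and asc minus desc values 122 stayed within their 95% range over elements, 20 moved and 4 reversed. Of the named elements' values 195 differed by no more than the spread between the columns of a period, a wide tolerance, and 5 by more. All 5 were values with another pseudocount. The Olig2 element was at -2.41 with 0.5 and -4.06 with 0.02. With 0.5 the Gm7932 element was at -3.43, the named Pou3f3 element at -2.22 and the named Nfia element at -1.48. With each column left out and the limits drawn anew, 15 of 25 named elements were inside the limits at least once. Centred on all elements, where the scrambled mean is -0.07, the late minus early difference was 0.0377 for the IPC-class, -0.0065 for the NSC-class (-0.0013 for its asc label), -0.0477 for the Mature-class and 0.0382 for the Shadow-class. In MAD scores the difference was -0.24 for the IPC-class, -0.28 for its desc label and -0.0383 for the NSC-class asc label, beside -0.62 in the scrambled controls. With only elements whose mean activity exceeded the scrambled median, the differences were 0.28 (IPC-class), 0.27 (NSC-class), 0.25 (Mature-class), 0.10 (E14-class) and 0.37 (Shadow-class), beside 0.15 in the controls kept. There the gap of intermediate progenitors minus neural stem cells was 0.19 (IPC-class), 0.12 (NSC-class), 0.24 (Mature-class), 0.10 (E14-class) and 0.25 (Shadow-class), beside 0.04 in the controls. By medians the Mature-class gap was -0.0483. The cause of these shifts was not tested.

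With 1 column left out, the difference ranged from 0.0578 to 0.197 for the IPC-class and from 0.0212 to 0.143 for the NSC-class. The gap between cell types ranged from -0.0744 to 0.0795 for the IPC-class and from -0.18 to 0.032 for the NSC-class. Elements above the limit numbered 151 with limits at 0.5% and 694 with limits at 5%, and elements below 99 and 697. In the E14-class these were 22 and 84 above, and 11 and 93 below. With the filter on mean activity 217 elements were below, 36 of them E14-class, and by MAD score 98 E14-class elements were below. No paired analysis was possible because the deposited table holds 1 pooled value per cell type and age, so the replicate block and leaving out replicates were not run. Single values have an unknown depth and error.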
